A study of Mus musculus with 30 samples.

Results

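The 10 genes described here encode the subunits of protein kinase A (PKA), an anchoring protein that holds the kinase at synapses, and 3 nuclear factors of the same pathway. They were chosen by name: Prkaca and Prkacb (catalytic subunits), Prkar1a, Prkar1b, Prkar2a and Prkar2b (regulatory subunits), Akap5 (the anchor), and Creb1, Crem and Crtc1 (CREB factors and a coactivator). All 10 were found among the 55401 gene IDs of the count table, each as 1 ID, and all 10 were among the 23736 genes tested. RNA was sequenced from bilateral nucleus accumbens punches of 30 male C57Bl/6J mice, 1 animal per library. Each mouse had tibial SNI (spared nerve injury, a partial cut of the sciatic nerve used as a model of neuropathic pain) or a sham operation. After 4 weeks, injections into the peritoneum were given 2 times a day for 3 weeks.

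The 6 groups were sham mice on saline (n = 5, the study's control), sham mice on tianeptine at 30 mg/kg (n = 6), sham mice on desipramine at 15 mg/kg (n = 4), SNI mice on saline (n = 5), SNI mice on tianeptine at 30 mg/kg (n = 6) and SNI mice on desipramine at 15 mg/kg (n = 4). Tianeptine, an antidepressant, is an agonist of the mu-opioid receptor, which inhibits adenylyl cyclase. Desipramine, of the tricyclic class, inhibits the noradrenaline transporter. No animal was untreated, since the saline mice received the same injections, and ages were not stated in the labels.

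As background, PKA is held inactive as a complex of regulatory and catalytic subunits. Cyclic AMP, made by adenylyl cyclase, binds the regulatory subunits and frees the catalytic ones, which phosphorylate channels, receptors and, in the nucleus, the transcription factor CREB. CREB binds the cyclic AMP response element (CRE) in promoters and works with coactivators of the CRTC family, which enter the nucleus when they lose phosphate. In the accumbens most neurons are medium spiny neurons, in which dopamine D1 receptors raise and D2 and mu-opioid receptors lower cyclic AMP. The pathway is mostly switched by phosphorylation, which RNA levels do not measure.

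Library totals ran from 24.5 to 121 M (mega) counts. The library numbers form 2 sets, and the labels do not say what separates them. The first set holds replicates 1 to 4 of every group (24 libraries, 24.5 to 37.7 M counts). The second holds 6 libraries (98 to 121 M), all numbered 5 or 6 and all on saline or tianeptine, and none on desipramine. All 12 markers of medium spiny neurons were detected in every library. SNI desipramine replicate 2 stood apart: all 12 were lower there than in any other library, with a summed level of 1006 CPM (counts per M counts, with TMM scaling, the trimmed mean of M values) against 3513, 4900 and 7652 in replicates 3, 1 and 4 of its group. Their sum was 5909 to 8442 CPM in the sham saline group, 4206 to 7679 and 4377 to 8393 in the sham tianeptine and sham desipramine groups, and 4164 to 7456 and 4151 to 7820 in the SNI saline and SNI tianeptine groups. The 9 markers of septal, preoptic and hypothalamic neurons, which neighbour the accumbens, summed to 855 and 778 CPM in SNI desipramine replicates 2 and 3, and to 593 and 446 CPM in replicates 1 and 4. This sum was 262 to 359 CPM in the sham saline group, 204 to 658 and 233 to 599 in the sham tianeptine and sham desipramine groups, and 187 to 742 and 226 to 624 in the SNI saline and SNI tianeptine groups. None of these 9 was at 0 in any library. In such tissue RNA, fewer cells of a type and less RNA per cell cannot be told apart.

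A promoter element of the pathway is present in one of the pathway's own genes. The full CRE, TGACGTCA, which reads the same on both strands, was searched in windows of 300 bases around RefSeq gene starts (250 before to 50 after the start, build GRCm38.p6). Of 32851 such windows of all genes, 1.79% held it. This share is per window and not per gene, and a gene can have several windows, so it is no background for this list of genes. Windows were found for 9 of the 10 genes, all but Crem. Among them only Prkar1a held the full CRE, in 2 overlapping windows of neighbouring starts that share the same site. Its first base lay 49 bases before one start and 39 bases after the other. Prkar1a had 6 windows, the most of the 9 genes and so the most chances of a match, and its other windows lacked the full CRE. The stretch is shown because it is the one exact match among the 9 genes, with the element in capitals. It lies on the plus strand at chr11:109650889-109650918 (mm10).

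Prkar1a promoter: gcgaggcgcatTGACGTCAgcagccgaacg

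The shorter element TGACG, or CGTCA on the other strand, is part of the full one and was in 20.8% of all windows. It was found in at least 1 window of Prkaca, Prkacb, Prkar1a, Prkar1b and Prkar2a. All of these but Prkar2a had more than 1 window, and some of their windows lacked it. The 20.8% is a share of windows and not of genes, so it is no background for this list of genes. It was not found in the windows of Prkar2b, Akap5, Creb1 and Crtc1. These matches describe the letters of the windows and no binding was measured.

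Levels per length put the type I regulatory subunits first and Creb1 and Crem last. On the scale of CPM per kilobase of exon, averaged over the 30 libraries, Prkar1b stood at 132 ± 18.4 (SD, n = 30) and Prkar1a at 127 ± 12. Both are type I regulatory subunits, which are mostly found free in the cytosol. Prkar1b was above Prkar1a in 19 of 30 libraries, so the order of this pair did not hold beyond their spread. Prkaca, the catalytic subunit found in most tissues, followed at 69 ± 8, and Prkacb, a catalytic subunit with brain isoforms, at 55.4 ± 6.41, with Prkaca above in 29 of 30 libraries. Prkar2b, the type II regulatory subunit typical of brain, was at 45.9 ± 9.29, and Akap5 at 40.1 ± 10.1. Prkar2b was above Akap5 in 25 of 30 libraries. Crtc1, the CRTC coactivator typical of neurons, was at 26.2 ± 3.83. Prkar2a, the broadly expressed type II regulatory subunit, was at 10.3 ± 1.28. Creb1, which encodes CREB itself, was at 3.59 ± 0.612, and Crem, a related factor with activating and repressing isoforms, at 2.36 ± 0.343. From Crtc1 down the order held in 29, 30 and 30 of 30 libraries for each neighbouring pair.

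**Figure D1:**
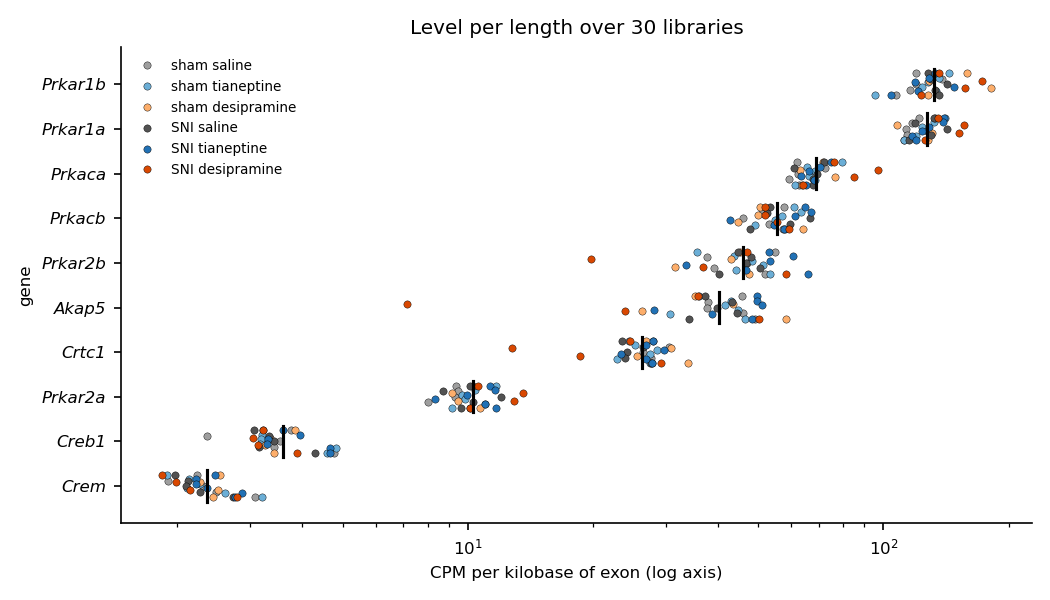
Level of each gene in each of the 30 libraries, as CPM per kilobase of exon on a log axis, with 1 point per library coloured by group and a black bar at the mean. Prkar1b and Prkar1a overlap at the top, Creb1 and Crem lie at the bottom, and 1 SNI desipramine library lies far to the left for Prkar2b, Akap5 and Crtc1.

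The balance of subunits varied more within the pairs than between catalytic and regulatory subunits. Summed per length, the 2 catalytic genes stood at 0.395 ± 0.023 of the 4 regulatory genes (n = 30), with a range of 0.339 to 0.443. The group means of this ratio ran from 0.373 ± 0.0303 in the sham desipramine group (n = 4) to 0.407 ± 0.0231 in the sham tianeptine group (n = 6). Prkaca to Prkacb was 1.26 ± 0.214, with a range of 0.991 to 1.87. Prkar1b to Prkar1a was 1.04 ± 0.112. Prkar2b to Prkar2a was 4.51 ± 0.97, and in the SNI desipramine group it ran from 1.46 to 5.74. The sum of the type I genes was 4.8 ± 1.38 times that of the type II genes, from 2.88 to 9.84. Both extremes of the type I to type II ratio were in SNI groups, the highest with desipramine and the lowest with tianeptine. Length was taken as all annotated exon bases, so a gene whose short isoforms dominate is set too low on this scale.

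The spread over mice differed between members. The highest of the 30 libraries was 8.16 times the lowest for Akap5, 3.33 times for Prkar2b and 2.64 times for Crtc1. For the other 7 members it was 1.44 times (Prkar1a) to 2.05 times (Creb1). Prkar1a was also the member with the smallest spread inside groups, with a coefficient of variation of 8.09%, against 31.4% for Akap5. Even Crem, the lowest member, had at least 279 counts in every library. The part of depth in the spread was not tested.

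**Figure D2:**
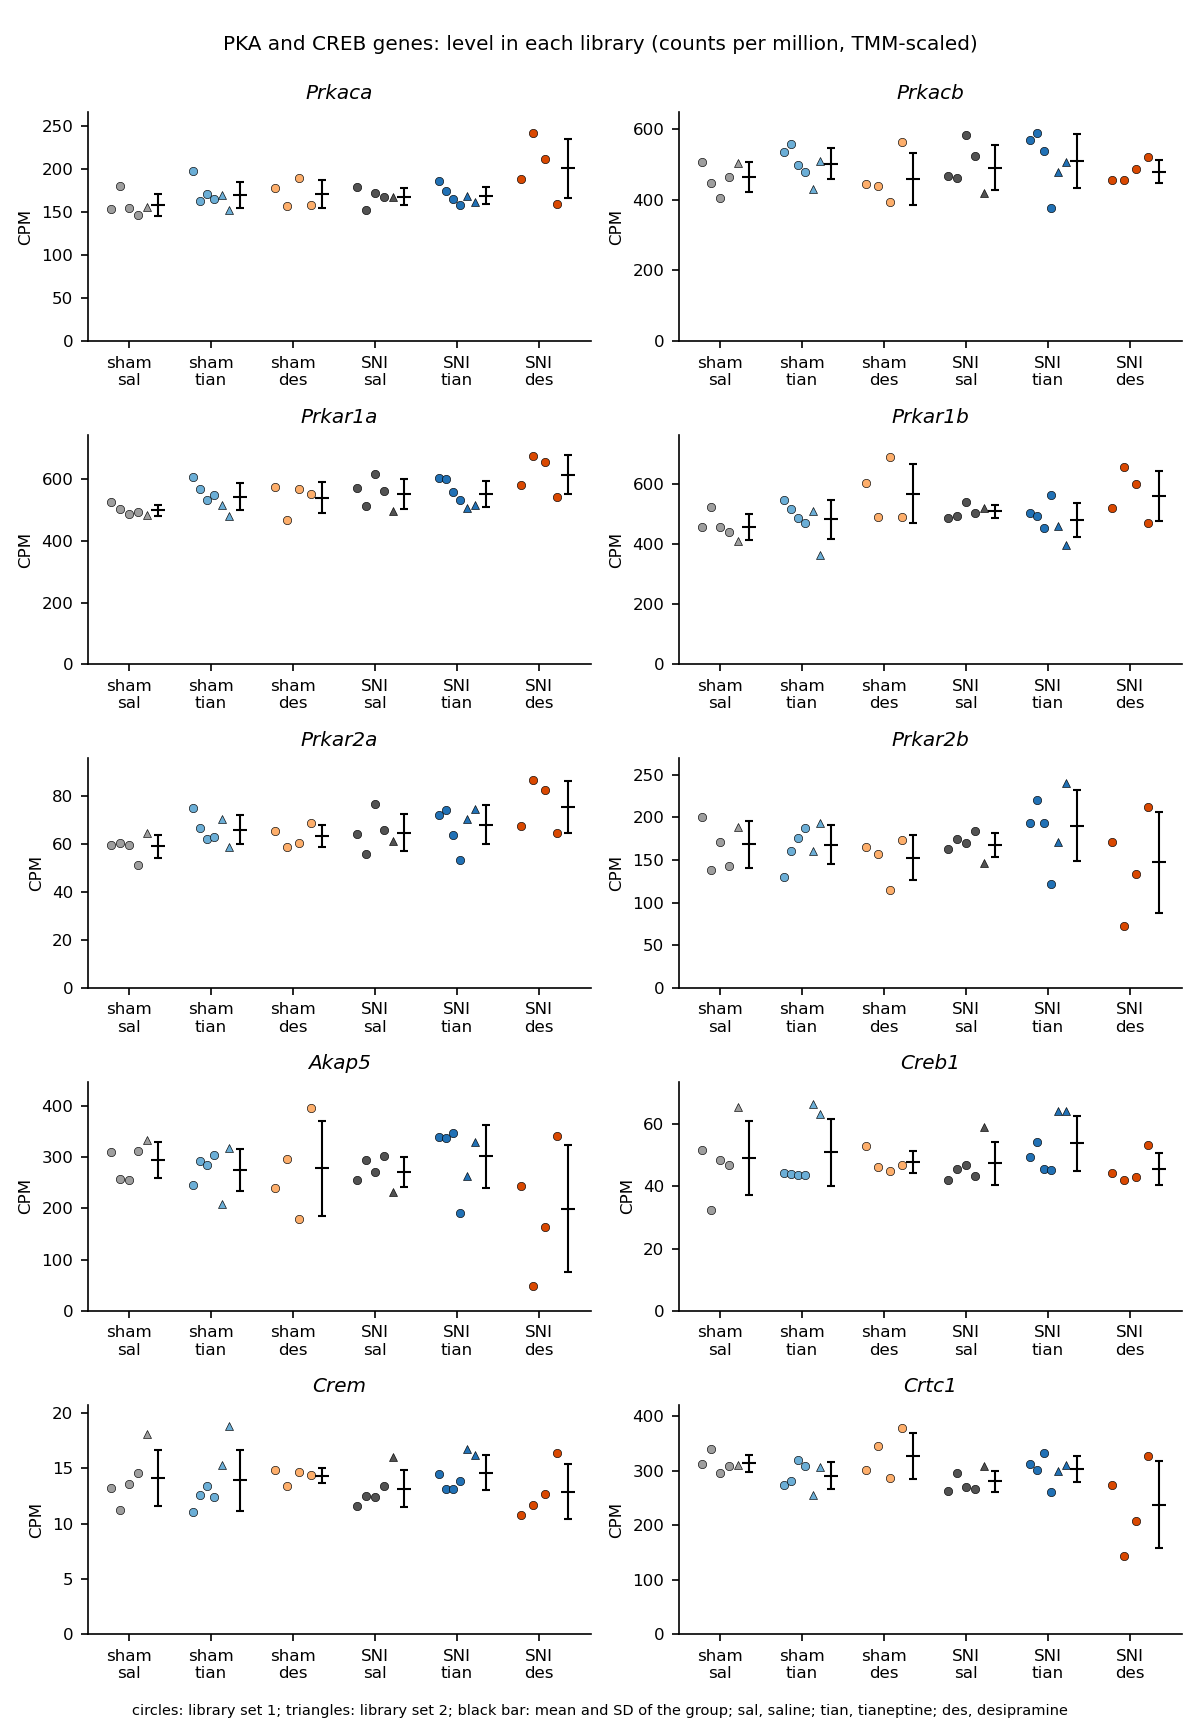
Level of each gene in each library, in CPM after TMM scaling, by group, with circles for the first set of libraries, triangles for the second, and bars for the mean and SD of a group. The groups of each of the 5 comparisons tested overlap for every gene, the triangles lie high for Creb1 and Crem, and the SNI desipramine group is the widest for Akap5, from 48.7 to 342 CPM.

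No change of the 10 genes with injury or with either drug passed the test. In each of the 10 comparisons made, edgeR's quasi-likelihood test with Benjamini-Hochberg adjustment over 23736 genes called 0 of the 10 at an adjusted p of 0.05. DESeq2 and limma-voom also called 0 of the 10 in each comparison. Over all genes, DESeq2 called 529 of 18591 for desipramine in SNI mice and 418 of 20315 for tianeptine against desipramine. For desipramine averaged over both surgeries it called 103 of 18591. In edgeR few genes of any kind passed, and the shares that follow are from its fit. The share of all genes called was 0% for SNI against sham on saline, 0% for tianeptine in sham mice, 0% for tianeptine in SNI mice, 0% for desipramine in sham mice, 0% for desipramine in SNI mice, 0% for tianeptine averaged over both surgeries, and 0% for each of the 2 interactions of drug and surgery. It was 0.0295% (7 genes) for desipramine averaged over both surgeries and 0.438% (104 genes) for tianeptine against desipramine. The absence of a call does not show that levels were equal, and intervals of the differences are given below. The drug comparisons within a surgery share their saline mice.

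SNI and sham mice on saline overlapped at every member. Prkar1a, the member of smallest p, was measured at 527, 504, 488, 492 and 483 CPM in sham saline replicates 1 to 5 and at 570, 513, 616, 562 and 498 CPM in SNI saline replicates 1 to 5. Of the 5 SNI mice, 3 lay above every sham mouse and the other 2 lay inside the sham range. The log2 fold change was 0.14 ± 0.07 (SE; 95% interval 0.01 to 0.28; unadjusted p = 0.0383, adjusted p = 0.486, edgeR). It was the only member of the 10 under an unadjusted p of 0.05, beside 9.74% of all genes tested. Crtc1 was measured at 313 ± 16.7 CPM (n = 5) in sham mice and 280 ± 20.2 (n = 5) in SNI mice. Its difference was -0.16 ± 0.13 on the log2 scale, with a 95% interval of -0.43 to 0.11. Marker scores of tissue content, the mean centred log2 CPM of a marker list, moved between these groups too. The medium spiny neuron score was 0.33 ± 0.18 (SD) in sham and -0.03 ± 0.30 in SNI mice, and the septal score -0.46 ± 0.16 and -0.03 ± 0.65. With both scores as covariates the log2 fold change was 0.08 ± 0.05 (SE) for Prkar1a (unadjusted p = 0.125, edgeR) and -0.01 ± 0.06 for Crtc1. The part of tissue content in these values was not tested. No member had groups that did not overlap, beside 0.746% of all genes.

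Tianeptine in sham mice was also nearest to a difference at Prkar1a. This gene was measured at 608, 568, 534, 549, 517 and 482 CPM in sham tianeptine replicates 1 to 6, against 483 to 527 CPM in the 5 sham saline mice. Of the 6 tianeptine mice 4 lay above every saline mouse and 1 below all of them. The log2 fold change was 0.14 ± 0.06 (unadjusted p = 0.035, adjusted p = 0.727, edgeR). It was again the only member under an unadjusted p of 0.05, beside 6.84% of all genes. The same 5 saline mice stand in both Prkar1a comparisons. The groups overlapped for all 10 members, while 0.333% of all genes did not overlap.

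Tianeptine in SNI mice left 0 of 10 members under an unadjusted p of 0.05, beside 2.87% of all genes. The smallest p was that of Creb1, at 42, 45.6, 46.9, 43.2 and 59.1 CPM in SNI saline replicates 1 to 5 and at 49.4, 54.1, 45.4, 45.2, 64.2 and 64.1 CPM in SNI tianeptine replicates 1 to 6. The highest values of both groups were the libraries of the second set, and the first-set libraries of the groups interleaved. With the library set in the model, the log2 fold change was 0.11 ± 0.08, with an interval of -0.06 to 0.29 (unadjusted p = 0.18, adjusted p = 1, edgeR). No member was without overlap, beside 0.308% of all genes. Averaged over both surgeries, tianeptine left 0 of 10 members under an unadjusted p of 0.05, beside 4.74% of all genes. Prkar1a had the smallest p there (0.08 ± 0.04; unadjusted p = 0.0803, adjusted p = 0.97, edgeR), with a mean of 548 CPM on tianeptine and 525 on saline.

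Desipramine in sham mice was nearest to a difference at Prkar1b, the type I regulatory subunit of neurons. It was measured at 457, 525, 457, 441 and 409 CPM in sham saline replicates 1 to 5 and at 604, 490, 690 and 489 CPM in sham desipramine replicates 1 to 4. Replicates 1 and 3 on desipramine lay above all saline mice and replicates 2 and 4 lay inside their range. On the log2 scale the fold change was 0.28 ± 0.11 (95% interval 0.05 to 0.51; unadjusted p = 0.0173, adjusted p = 0.56, edgeR). One of 10 members was under an unadjusted p of 0.05, beside 7.63% of all genes, and 0 of 10 did not overlap, beside 1.7% of all genes. Exons of Prkar1b share 8.95% of their bases with the gene model Gm15672 on the same strand, and reads there could have been left uncounted or split.

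Desipramine in SNI mice had the members of smallest adjusted p of the 5 comparisons between groups. Prkaca was measured at 179, 152, 172, 168 and 168 CPM in SNI saline replicates 1 to 5 and at 189, 242, 212 and 160 CPM in SNI desipramine replicates 1 to 4. Replicates 1, 2 and 3 lay above all 5 saline mice and replicate 4 lay among them. Prkaca had a log2 fold change of 0.25 ± 0.09 (95% interval 0.06 to 0.43; unadjusted p = 0.0125, adjusted p = 0.172, edgeR). Prkar2a was measured at 64.1, 55.6, 76.8, 65.7 and 61.3 CPM on saline and at 67.5, 86.8, 82.5 and 64.6 CPM on desipramine, with replicates 2 and 3 above all saline mice. Its log2 fold change was 0.23 ± 0.10 (unadjusted p = 0.037, adjusted p = 0.255, edgeR). These were 2 of 10 members under an unadjusted p of 0.05, beside 17.5% of all genes, and 0 of 10 did not overlap, beside 2.14% of all genes.

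Akap5, Prkar2b and Crtc1 varied most among the members in the 4 SNI mice on desipramine, with coefficients of variation of 62.4%, 40.3% and 33.5%. Akap5 anchors PKA, calcineurin and protein kinase C at the postsynaptic membrane, and it was measured at 244, 48.7, 163 and 342 CPM in SNI desipramine replicates 1 to 4. The 5 SNI saline mice were at 255, 295, 271, 303 and 232 CPM. Replicate 2 was lower than any of the other 29 libraries, while replicate 4 was above all 5 saline mice. Its log2 fold change was -0.45 ± 0.31, with an interval of -1.09 to 0.19 (adjusted p = 0.468, edgeR). Crtc1 was measured at 274, 143, 208 and 327 CPM on desipramine and at 262, 295, 270, 267 and 308 CPM on saline, with the same mouse lowest (-0.23 ± 0.14; adjusted p = 0.396, edgeR). Prkar2b was measured at 171, 72.4, 134 and 212 CPM on desipramine and at 163, 175, 170, 184 and 147 CPM on saline (-0.17 ± 0.21; adjusted p = 0.709, edgeR). Replicate 2 was thus the lowest of the 30 libraries for these 3 genes and the highest of the 30 for Prkaca, Prkar1a and Prkar2a.

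In the SNI mice on desipramine, the values of these members moved alongside the marker scores of tissue content. The part of tissue content in them was not tested. The score of the 12 medium spiny neuron markers was -0.24, -2.56, -0.72 and 0.42 in SNI desipramine replicates 1 to 4, and the septal score was 0.68, 1.75, 1.82 and -0.30. With both scores as covariates, the log2 fold change of desipramine in SNI mice was 0.04 ± 0.07 for Prkaca, -0.01 ± 0.08 for Prkar2a, -0.00 ± 0.07 for Crtc1 and -0.23 ± 0.12 for Akap5. Without replicates 2 and 3 of that group it was 0.03 ± 0.09 for Prkaca, 0.03 ± 0.12 for Prkar2a, 0.09 ± 0.10 for Crtc1 and 0.09 ± 0.23 for Akap5. These replicates held the highest Prkaca and Prkar2a values and the lowest Crtc1 and Akap5 values of the group. Leaving them out had to move the estimates in these directions, so the shift is no test of a cause. Without replicate 4, the one with the highest spiny neuron score of the group, 2 members passed. Without it Prkaca had a log2 fold change of 0.33 ± 0.09 (adjusted p = 0.0149, edgeR) and Crtc1 one of -0.44 ± 0.13 (adjusted p = 0.0258, edgeR). With all libraries 0 genes passed in this comparison.

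**Figure D3:**
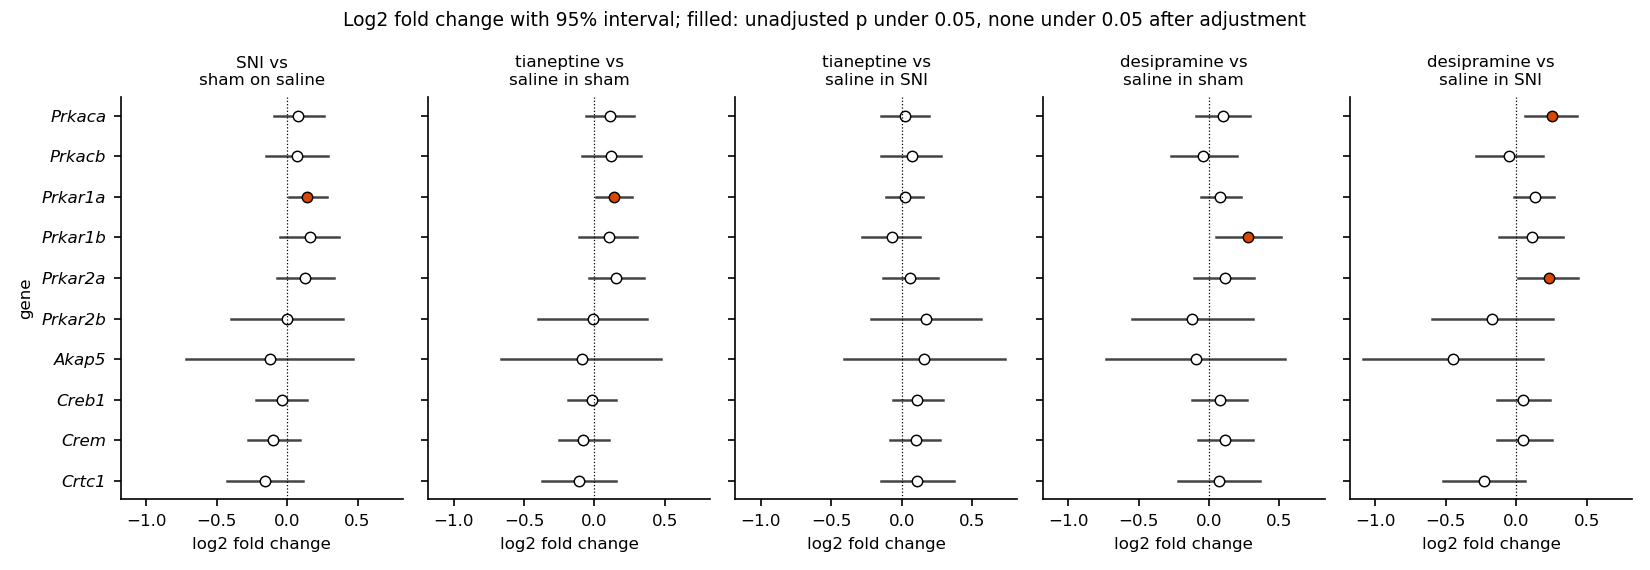
Log2 fold change of each gene in the 5 comparisons of groups, with its 95% interval from the edgeR fit; filled points have an unadjusted p under 0.05. The 5 filled points are Prkar1a with injury and with tianeptine in sham mice, Prkar1b with desipramine in sham mice, and Prkaca and Prkar2a with desipramine in SNI mice, and none passed after adjustment.

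Averaged over both surgeries, desipramine put 4 of 10 members under an unadjusted p of 0.05, beside 12.5% of all genes. All 4 encode kinase subunits, but the remaining kinase subunit genes were below 0: Prkacb at -0.04 ± 0.08 and Prkar2b at -0.15 ± 0.15. The 4 genes also correlated with each other over the libraries, at r from 0.39 to 0.88, so they are not 4 separate signs. Prkaca was at a mean of 186 CPM against 163 on saline, a log2 fold change of 0.17 ± 0.07 (adjusted p = 0.303, edgeR). Prkar1b was at 565 against 484 CPM, a log2 fold change of 0.19 ± 0.08 (adjusted p = 0.334, edgeR). The log2 fold change of Prkar2a was 0.17 ± 0.07 and that of Prkar1a 0.11 ± 0.05, with adjusted p of 0.364 and 0.39 in edgeR. Without SNI desipramine replicates 2 and 3 the values of these 4 genes were smaller: 0.07 ± 0.06 for Prkaca, 0.10 ± 0.09 for Prkar1b, 0.07 ± 0.08 for Prkar2a and 0.04 ± 0.05 for Prkar1a. Those replicates held the highest values of all 4 genes in their group, so leaving them out had to lower the estimates. With the 2 tissue scores as covariates the 4 values were 0.05 ± 0.05, 0.09 ± 0.06, 0.05 ± 0.05 and 0.03 ± 0.04 in the same order. The part of tissue content in these values was not tested. Tianeptine against desipramine left 1 of 10 under an unadjusted p of 0.05, beside 14.2% of all genes. It was Prkar1b, with a log2 fold change of -0.18 ± 0.08 (adjusted p = 0.296, edgeR) and means of 481 CPM on tianeptine and 565 on desipramine.

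The drug effects were not shown to differ between SNI and sham mice for any member. For tianeptine, 0 of 10 members were under an unadjusted p of 0.05 in the interaction, beside 4.2% of all genes. The smallest p was that of Crem (0.17 ± 0.12; adjusted p = 0.989, edgeR). For desipramine it was 0 of 10, beside 12.3% of all genes. The smallest p there was that of Crtc1 (-0.30 ± 0.20; 95% interval -0.71 to 0.10; adjusted p = 0.557, edgeR), and its value was 0.02 ± 0.13 without SNI desipramine replicates 2 and 3. Those replicates held the lowest Crtc1 values of their group.

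Creb1 and Crem followed the set of libraries more than any group. Creb1 was measured at 59.1 to 66.4 CPM in the 6 libraries of the second set and at 32.4 to 54.1 CPM in the 24 of the first. The coefficient for the second set over the first was 0.48 ± 0.06 on the log2 scale (adjusted p = 1.09e-06, edgeR) for Creb1 and 0.39 ± 0.07 (adjusted p = 3.90e-05) for Crem. For Prkar1a it was -0.15 ± 0.05 (adjusted p = 0.0209). The other 7 members did not pass, beside 32.3% of all genes called. The sets differ in depth, and the part of depth in these values was not tested. Crem was the lowest member throughout, at group means of 12.9 ± 2.44 CPM (SNI desipramine, n = 4) to 14.6 ± 1.59 CPM (SNI tianeptine, n = 6). Exons of Crem share 8.01% of their bases with Gm6225 on the opposite strand, and the strand setting of the counting is not stated in the labels. Creb1 group means ran from 45.6 ± 5.21 to 53.7 ± 8.7 CPM in the same 2 groups.

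Across mice, the members fell into genes that rose and genes that dropped with the spiny neuron score, which holds none of them. Over the 30 libraries, centred within each library set, Akap5 correlated with the score at r = 0.94 and rho = 0.83 (both permutation p = 1.0e-05, the smallest that 100000 permutations can give; adjusted p = 8.00e-05 over 40 relations). Without the 2 libraries farthest from the median score r was 0.79, and within the first and second sets it was 0.94 and 0.92. Crtc1 had r = 0.93 and rho = 0.85 (0.79 without the 2 libraries, 0.94 and 0.67 within sets). Prkar2b had r = 0.81 and rho = 0.67 (0.60 without the 2, 0.83 and 0.68 within sets). The opposite sign was found for Prkaca, at r = -0.80 and rho = -0.65 (-0.57 without the 2), and for Prkar1b, at r = -0.73 and rho = -0.78 (-0.74 without the 2). Prkar1a had r = -0.67 and rho = -0.61 (-0.49 without the 2). Prkar2a had r = -0.58 and rho = -0.45 (-0.28 without the 2), so the size of its r depended in part on those libraries. For these 7 genes the permutation p was at most 0.00086 for r and 0.0147 for rho, and the adjusted p over the 40 relations at most 0.00265 and 0.0368. The second set has 6 libraries only. The share of all genes tested that correlate this strongly with the marker scores was not computed. The division is therefore not shown to be particular to these genes.

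**Figure D4:**
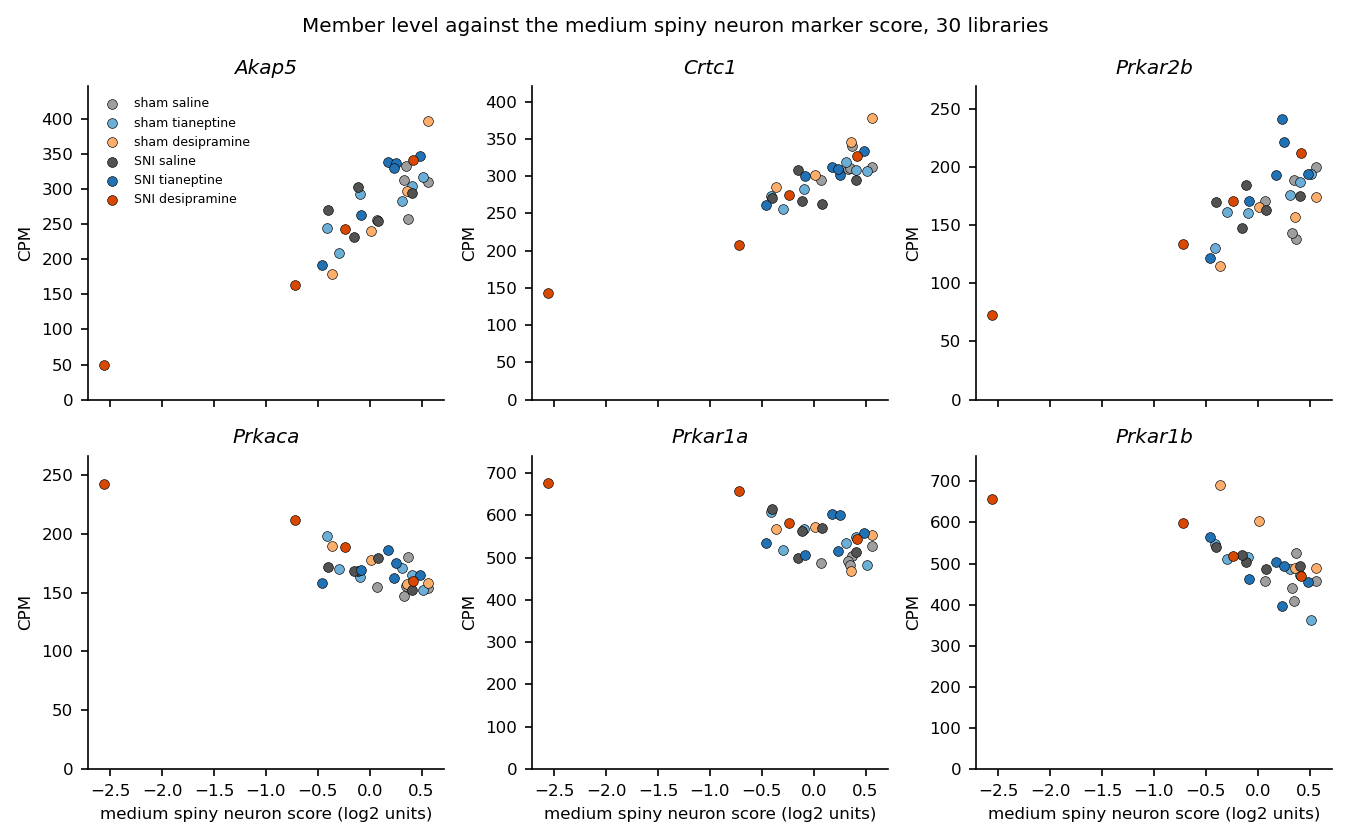
CPM of 6 members against the medium spiny neuron marker score (mean centred log2 CPM of 12 markers), 1 point per library coloured by group. Akap5, Crtc1 and Prkar2b lie higher and Prkaca, Prkar1a and Prkar1b lower as the score rises, and the point at a score of -2.56 is SNI desipramine replicate 2.

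Scores of other markers moved with some of the same members and with Prkacb. Prkar2a, Prkar1a and Prkaca correlated with the septal score at r = 0.85, 0.83 and 0.79 (0.76, 0.72 and 0.58 without the 2 libraries farthest from the median; permutation p at most 2.00e-05, adjusted p = 8.00e-05), with rho of 0.81, 0.81 and 0.64. Within the first and second sets the r of Prkaca was 0.82 and 0.11. Crtc1 and Akap5 fell as the septal score rose, at r = -0.76 and -0.58 (-0.48 and -0.03 without the 2). Prkacb followed neither the spiny neuron nor the septal score strongly. It fell as the score of 8 cortical excitatory neuron markers rose, at r = -0.71 and rho = -0.73 (-0.71 without the 2, -0.72 and -0.70 within sets; permutation p = 2.00e-05). Prkar2a and Prkar1a also fell as the cortical score rose, at r = -0.63 and -0.54 (-0.63 and -0.57 without the 2). The summed level of these cortical markers ran from 62.7 to 1300 CPM over the libraries, and none was at 0. Creb1 had an r between -0.16 and 0.22 with each of the 4 scores tried, and Crem one between -0.43 and 0.36. With the spiny neuron and septal scores as covariates, the log2 fold change of Prkacb with desipramine in SNI mice was -0.09 ± 0.10, against -0.05 ± 0.12 without them. The cortical score was not a covariate of that fit, and its part in the group values of Prkacb was not tested.

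Genes that follow 1 score over the same libraries also correlate with each other, so the pairs of members are no separate sign of the division. Their r was not computed without SNI desipramine replicate 2. Described over the 30 libraries, which share their dissection and depth, Akap5 and Crtc1 correlated at r = 0.90, Prkar2b and Akap5 at 0.88, and Prkar1a and Prkar2a at 0.88. Prkaca correlated with Prkar1a at 0.81, with Akap5 at -0.76 and with Prkacb, the other catalytic gene, at -0.04. The pair of type II regulatory genes, Prkar2a and Prkar2b, correlated at -0.16.

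The genes most like each member over the 30 libraries, by Pearson r of log2 CPM centred within sets, were as follows. These r were not computed without SNI desipramine replicate 2 either. For Akap5 they were Dclk3 (r = 0.98) and Drd1 (0.97), the D1 dopamine receptor of the direct-pathway spiny neurons. For Crtc1 they were Jph4 and Sipa1l1 (both 0.97). For Prkar2b they were Foxp2 (0.97), a transcription factor of striatal neurons, and Ddx5 (0.95). For Prkaca they were Ctif and Clcn6 (both 0.93), for Prkacb Mb21d2 (0.93) and Nedd4 (0.91), and for Prkar1a Ndfip1 (0.96) and Dcaf12l1 (0.95). For Prkar1b they were Tmem59l (0.96) and Flot1 (0.93), and for Prkar2a Gnl3l and Lonrf2 (both 0.91). Exoc5 (0.88) was among the genes most like Creb1. Crem had no close match, with Suv39h2 at 0.73 and Peak1os at 0.72.

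Of 64 other genes of the pathway, all tested, 1 passed in any comparison in edgeR. The share of all genes that passed was 0.0295% for desipramine averaged over surgeries and 0.438% for tianeptine against desipramine. The lists were 3 PKA inhibitors, 13 other anchoring proteins, 12 other CREB family factors and coactivators, 6 kinases and phosphatases that act on CRTC, 10 neuronal PKA substrates and 20 genes known as CREB targets. The gene was Vgf, a CREB target that encodes a neuronal secreted peptide precursor. It was measured at 240, 272, 221, 189 and 202 CPM in sham saline replicates 1 to 5 and at 312, 324, 323 and 318 CPM in sham desipramine replicates 1 to 4. In SNI mice it was at 204, 226, 202, 220 and 214 CPM on saline and at 248, 219, 261 and 291 CPM on desipramine. All 4 sham mice on desipramine lay above every saline mouse, and 3 of 4 SNI mice on desipramine lay above every SNI mouse on saline. Between sham mice on desipramine and on saline, 1.7% of all genes did not overlap. Averaged over both surgeries it was 1.29 times as high on desipramine (log2 fold change 0.37 ± 0.07; adjusted p = 0.0277, edgeR). It was lower on tianeptine than on desipramine, at a mean of 222 against 287 CPM (log2 fold change -0.34 ± 0.07; adjusted p = 0.0178, edgeR). Within sham mice the log2 fold change of desipramine was 0.50 ± 0.09 (adjusted p = 0.0998) and within SNI mice 0.24 ± 0.09 (adjusted p = 0.181), and neither passed in edgeR. DESeq2 called it within sham mice. In edgeR the call of the average against saline was lost in the first library set alone (adjusted p = 0.0977), with a replicate block (0.0823), and with only the compared groups in the fit (0.27). It was also lost without any 1 of 11 libraries, with adjusted p from 0.0522 to 0.0882 in edgeR: sham saline replicates 1, 4 and 5, sham desipramine replicates 1, 2 and 3, SNI saline replicates 1, 3 and 4, and SNI desipramine replicates 1 and 3. The log2 fold change was 0.34 to 0.38 in all of these.

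The 20 CREB targets, Vgf among them, had values on both sides of 0 with desipramine. Averaged over surgeries, their median log2 fold change was -0.01, beside -0.00 for all genes, and 8 of 20 were above 0. In sham mice 13 of 20 were above 0 on desipramine, with a median of 0.17 beside -0.01 for all genes. Per1, a clock gene with CREs in its promoter, was at 136 CPM on tianeptine and 101 on desipramine (0.43 ± 0.12; adjusted p = 0.101, edgeR). In SNI mice on desipramine 16 of 20 targets were below 0, with a median of -0.27 beside 0.01 for all genes. In the same mice 8 of 10 PKA substrates were below 0, with a median of -0.28. Both lists hold genes that are also spiny neuron markers (Penk among the targets, Ppp1r1b among the substrates), and the mean spiny neuron score was lowest in this group. The part of tissue content in these list values was not tested. With tianeptine in SNI mice 17 of 20 targets were above 0 with a median of 0.24, beside 0.00 for all genes, and none passed. The SNI saline mice of that comparison also stand in the one of SNI with sham on saline, where 18 of 20 targets were below 0 with a median of -0.16, beside 0.00 for all genes.

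The remaining lists held values that did not pass in edgeR. Among inhibitors, Pkia was at 195 CPM on tianeptine against 156 on desipramine (0.26 ± 0.08; adjusted p = 0.153), and Pkig had a desipramine by surgery interaction of -0.52 ± 0.18 (adjusted p = 0.282). Among anchors, Akap13 was at 78.3 CPM in sham mice on desipramine against 54.3 on saline (0.58 ± 0.16; adjusted p = 0.547). Akap12, an anchor that also binds beta-adrenergic receptors, had an interaction of desipramine and surgery of 1.16 ± 0.34 (adjusted p = 0.246). Among CREB coactivators, Ep300 was at 112 CPM on tianeptine against 103 on saline (0.12 ± 0.04; adjusted p = 0.97), and Crtc3 at 36.5 CPM on desipramine against 32.2 on saline in SNI mice (0.20 ± 0.07; adjusted p = 0.144). Sik1, a kinase that keeps CRTC out of the nucleus, was at 24.2 CPM on tianeptine against 18 on saline (0.42 ± 0.14; adjusted p = 0.97), and Sik2 had an interaction of tianeptine and surgery of 0.27 ± 0.15 (adjusted p = 0.989). Among substrates, Syn1 was at 442 CPM on desipramine against 335 on saline in sham mice (0.43 ± 0.15; adjusted p = 0.547). Ppp1r1a was at 71.9 against 98.7 CPM in SNI mice (-0.48 ± 0.19; adjusted p = 0.194). The second value of each pair with ± is the SE of a log2 fold change.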

How the data were processed

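Polyadenylated RNA was extracted with TRIzol and made into libraries with an Illumina stranded mRNA kit, per the labels' protocols. The submitters' processing notes name Trim Galore, HISAT2, SAMtools and featureCounts and the build mm10. Their versions, the strand setting and the annotation release were not given in the sources used here. Whole-number counts per gene for 55401 IDs in 30 libraries were deposited. The deposited FPKM table was not used. Symbols and positions came from GENCODE M21 (54349 IDs matched exactly, 792 without the version, 260 not at all, with 0.0509% of counts), promoter windows from RefSeq.

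Groups came from the labels. Counts were fitted with edgeR 4.0.16 (R 4.3.3, limma 3.58.1): filterByExpr (23736 genes, 99.9% of counts), TMM (trimmed mean of M values) scaling, then robust quasi-likelihood fits with 6 group coefficients and 1 library set term (23 residual degrees of freedom). The 10 comparisons were 2-sided contrasts, with Benjamini-Hochberg adjustment across the 23736 genes. CPM are scaled by TMM. Log2 CPM for scores and correlations had a prior count of 2, and permutations were made within library sets. DESeq2 1.42.0 and limma-voom were alternatives. No 2 libraries of a group were near copies (smallest chi-square per degree of freedom 6.89).

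The members, gene lists and comparisons were chosen with earlier results of these data known. All 10 members are named, with tests for those at an unadjusted p under 0.05 in a comparison, or for the 1 of smallest p. From each pathway list the genes that passed and the 2 of smallest p are named, and for likeness the 2 genes of highest r, predicted gene models left out; 1 gene that this rule names is not reported here. Values of Akap5, Crtc1 and Prkar2b beyond this rule were given after they were seen.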

Additional observations from a re-analysis of the deposited data

Results flagged for a closer look

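In each group, the highest and lowest library of each member were compared with the rest by Dixon's criterion. It was met in 2 of 60 combinations of gene and group, and chance alone meets it in about 1 in 20 groups. Prkaca was highest in sham saline replicate 2, at 180 CPM, above the next library at 156 and the lowest at 147, with a group mean of 158 CPM. Creb1 was highest in SNI saline replicate 5, at 59.1 CPM, above the next library at 46.9 and the lowest at 42, with a group mean of 47.4 CPM. That library is the only one of its group in the second library set, in which Creb1 was high in all 6 libraries.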

How the results depend on the processing

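The count of members that passed was 0 in all 10 comparisons under every alternative run, except for desipramine in SNI mice. There, leaving out 1 library gave 0 to 2 (2 without SNI desipramine replicate 4, Prkaca and Crtc1, beside 3352 of 24050 genes tested). Of the values of members at an unadjusted p under 0.05 or of smallest p, direction turned for 2: Prkar2a with desipramine in SNI mice was -0.01 with the tissue scores as covariates, and the Crtc1 interaction of desipramine and surgery was 0.02 without SNI desipramine libraries 2 and 3. Values of larger p turned too. With desipramine in SNI mice and without those libraries, Prkar1a was -0.01, Prkar1b -0.09, Prkar2b 0.20, Akap5 0.09 and Crtc1 0.09. With the tissue scores Prkar1a was -0.02, Prkar1b -0.04 and Prkar2b 0.03 in the same comparison, and Akap5 was 0.16 and Prkaca -0.01 with injury. Other values of the interaction and of the average over surgeries also turned under these settings. The cause was not tested in any of these cases.

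Of the pathway genes, 0 passed for desipramine in sham mice as reported. The count was 1 (Vgf) with DESeq2, with the tissue scores as covariates and without SNI desipramine libraries 2 and 3, and 0 to 1 with 1 library left out. For desipramine in SNI mice it was 0 as reported, 1 with DESeq2 (Akap1) and 0 to 15 with 1 library left out. For desipramine averaged over surgeries it was 1 as reported, 0 in the first library set only, 0 with only the groups compared in the fit, 2 with the tissue scores as covariates (Vgf and Homer1) and 0 to 1 with 1 library left out. For tianeptine against desipramine it was 1 as reported, 2 with DESeq2 (Per1 and Vgf), 2 with the tissue scores (Ppp1r1b and Vgf) and 1 to 3 with 1 library left out. For the interaction of desipramine and surgery it was 0 as reported and 0 to 3 with 1 library left out. The upper counts of 15, 3 and 3 were all without SNI desipramine replicate 4, beside 3352, 827 and 957 of the 24050 genes tested there.

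With a replicate block the pathway count for desipramine averaged over surgeries was 0, since Vgf had an adjusted p of 0.0823, and no other count of members or pathway genes changed. No sign was found that the replicate numbers pair the mice: of 60 pairs of the same number 16 had a correlation of deviations over 0.1 (range -0.63 to 0.41, mean -0.03, against 0.01 for other pairs), and 3 of 24 libraries correlated best with their own number. With few libraries per group, this check cannot exclude a shared cage, day or batch.

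Over all genes, desipramine in SNI mice called 0 genes in edgeR, 529 in DESeq2, 1 with tissue scores, 32 without sham saline libraries 2 and 3, and 3352 without SNI desipramine replicate 4. Desipramine averaged over surgeries called 7, against 103 in DESeq2, 24 with tissue scores, 4 with the replicate block, 4 without SNI desipramine libraries 2 and 3, 0 in the first library set or with only the groups compared, and 2 to 360 with 1 library left out. Tianeptine against desipramine called 104, against 418 in DESeq2, 189 with tissue scores, 190 without sham saline libraries 2 and 3, 17 without SNI desipramine libraries 2 and 3, 62 in the first set, 61 with the replicate block, 57 with no filter, 30 with only the groups compared, and 47 to 827 with 1 library left out. Desipramine in sham mice called 0, against 20 in DESeq2 and 16 with tissue scores, and its interaction with surgery 0, against 64 in DESeq2 and up to 957 with 1 library left out. All the upper ends with 1 library left out were without SNI desipramine replicate 4. Other departures from 0 were of 1 to 4 genes. The group means of the 10 members moved by less than 1 SD without TMM scaling and without the second library set.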
